A study of Mus musculus with 27 samples.

Results

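The genes described here are 10 members of the Notch pathway in mouse hepatic stellate cells, the retinoid-storing pericytes of the liver sinusoid that turn into collagen-producing myofibroblasts after injury. They were the receptors Notch1, Notch2, Notch3 and Notch4, the ligands Jag1, Jag2 and Dll4, and the transcriptional targets Hes1, Hey1 and Heyl, taken by name from the 53379 genes of a raw count table. All 10 were found, and all 10 passed the filter on low counts that left 18758 genes to test.

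The study followed stellate cells by bulk RNA sequencing through acute injury, chronic injury and recovery. All animals were male Balb/c mice, and carbon tetrachloride (CCl4), a hepatotoxin, was given into the peritoneum in mineral oil at 0.5 µL per gram of body weight. Acute groups, 10 to 12 weeks old, received 1 injection, and cells were taken 24 h later in 3 libraries, 72 h later in 4 and 7 d later in 4. Chronic groups, 8 to 10 weeks old, received 8 injections over 4 weeks and were sampled at 24 h, 72 h or 14 d in 4 libraries each. The healthy group (n = 4), 10 to 12 weeks old, was not injected, so the oil vehicle was not measured alone and the age of the chronic groups has no control of its own. Cells were sorted from perfused livers by their ultraviolet signal and lysed without culture, so the RNA is that of cells bright enough for the gate. The labels do not say whether each library came from 1 mouse, and p-values measure the spread between libraries.

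Notch receptors are single-pass proteins that are cut when a ligand on a neighbouring cell pulls on them. The released intracellular part enters the nucleus, joins the DNA-binding protein RBPJ and a Mastermind coactivator, and switches on genes such as the Hes and Hey repressors. In the liver the pathway is best known for bile duct formation, through Jag1 and Notch2, and for the vessel wall, where Dll4, Notch1 and Notch4 act in endothelium and Notch3 in mural cells.

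Dll4 fell in 5 of 6 injury groups, and its log2 change of -3.08 at chronic 24 h was the largest of any member against healthy. Notch1 also fell in 5 groups, Jag1 in 5 and Notch4 in 3, while Hey1 fell 24 h after 1 injection and was above the healthy level at acute 7 d and chronic 72 h. Hes1 and Heyl were the most abundant members per length in every group, and neither they nor Notch3 and Jag2 passed the test in any comparison. For Heyl that result rested on 1 healthy library, as described with its values.

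Notch1, Notch4, Jag1 and Dll4, the members that fell in 3 or more groups, are shown first with bases from the stretch before their RefSeq transcription starts. The sequences come from RefSeq on GRCm38.p6, which listed a promoter window for 7 of the 10 members, all but Hes1, Hey1 and Heyl. Each is written 5′ to 3′ on the strand of the gene. It covers the 250 bases before the RefSeq start, cut before the first GENCODE exon base of the gene met within them. That base is 2, 27 and 124 bases before the RefSeq start for Notch1, Notch4 and Jag1, and the Dll4 stretch runs to the start. The stretches lie at chr2:26503825-26504072 on the minus strand for Notch1, chr17:34564045-34564267 on the plus strand for Notch4, chr2:137116645-137116770 on the minus strand for Jag1 and chr2:119325534-119325783 on the plus strand for Dll4. Capitals mark matches, on either strand, to TGGGAA (the core of the site that RBPJ binds) or its variant TGAGAA, and to the sites known for Hes and Hey proteins, which are the E-box CACGTG, the C-site with its letters CACGCG and the N-box written as CACNAG.
Notch1: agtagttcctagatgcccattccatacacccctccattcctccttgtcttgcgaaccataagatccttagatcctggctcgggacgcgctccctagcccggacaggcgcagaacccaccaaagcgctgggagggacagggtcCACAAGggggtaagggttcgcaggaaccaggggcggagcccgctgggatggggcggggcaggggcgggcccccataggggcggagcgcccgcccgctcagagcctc
Notch4: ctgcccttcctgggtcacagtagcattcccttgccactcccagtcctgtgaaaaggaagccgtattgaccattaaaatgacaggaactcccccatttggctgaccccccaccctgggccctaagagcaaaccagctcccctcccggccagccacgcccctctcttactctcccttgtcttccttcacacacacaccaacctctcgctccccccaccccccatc
Jag1: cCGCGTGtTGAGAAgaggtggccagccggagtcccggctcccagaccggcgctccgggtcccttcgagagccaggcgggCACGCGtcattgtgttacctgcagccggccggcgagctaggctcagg
Dll4: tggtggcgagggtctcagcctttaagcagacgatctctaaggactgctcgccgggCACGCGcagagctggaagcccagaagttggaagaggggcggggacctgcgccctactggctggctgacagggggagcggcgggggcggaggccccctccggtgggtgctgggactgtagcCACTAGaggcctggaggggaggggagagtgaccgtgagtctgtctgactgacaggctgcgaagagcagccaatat

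On GRCm38 the receptor genes span Notch1 (chr2:26457903-26516663, minus strand), Notch2 (chr3:98013527-98150361, plus strand), Notch3 (chr17:32120820-32166852, minus strand) and Notch4 (chr17:34564268-34588503, plus strand). The ligand genes span Jag1 (chr2:137081456-137116644, minus strand), Jag2 (chr12:112907819-112929776, minus strand) and Dll4 (chr2:119325784-119335962, plus strand), and the target genes Hes1 (chr16:30064384-30067796, plus strand), Hey1 (chr3:8663359-8667256, minus strand) and Heyl (chr4:123233556-123249875, plus strand). All 10 are annotated as protein-coding. The RefSeq starts used here for Notch1, Notch4 and Jag1 lie inside the GENCODE spans of the genes. For Notch1 the whole printed stretch lies inside that span too.

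The RBPJ core TGGGAA was absent from the 250 bases before the start of all 7 members with a window, and it was present in 21.6% of all 32851 windows of that length. Jag1 had 1 match to TGAGAA, 242 bases before its start (17.2% of all windows), and 2 to CACGCG (7.62%). Dll4 had 1 match to CACGCG and 1 to CACNAG (36.7%), the latter 75 bases before the start. Notch1 had 1 match to CACNAG, 108 bases before the start, and Notch4 had no match to any of the 5 patterns, CACGTG (6.02%) included. The GC box GGGCGG, not capitalised and found in 32.7% of windows, occurred 5 times before Notch1, 2 times before Dll4 and not before Jag1 or Notch4. These are matches of letters in a short window and say nothing of binding. The 250 bases held 66.0% G and C for Notch1, 58.4% for Notch4, 57.2% for Jag1 and 65.6% for Dll4. The median of all windows was 52.4%, so the shares of all windows are not matched for base content.

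The libraries held 6314801 to 13052838 counts. They fell into a lower class of 8 libraries (6314801 to 7580709 counts, namely all of chronic 14 d and replicates 1 and 2 of chronic 24 h and chronic 72 h) and a higher class of 19 (10792560 to 13052838 counts), so chronic 14 d against healthy compares the 2 classes, and a term for depth class rests on chronic 24 h and chronic 72 h, which hold libraries of both. Values are CPM, counts scaled to a common library total with TMM factors, and differences are log2 fold changes with their standard error (SE) from edgeR's quasi-likelihood test, with p-values adjusted over the 18758 genes and a call at 0.05. All 11 stellate markers were detected in every group, with summed CPM of 17216 to 23754 in healthy libraries and 7013 to 14081 in injured ones. Of 7 myofibroblast markers, 2 to 7 were called higher in each injury group. Markers of sinusoidal endothelium, cells that also use Dll4, Notch1 and Notch4, were present in every library. Their summed CPM over 14 genes was 263 to 774 in healthy libraries, 235 to 300.4 at acute 24 h, 92.5 to 251 at acute 72 h, 327 to 943 at acute 7 d, 106 to 329 at chronic 24 h, 294 to 439.9 at chronic 72 h and 612 to 903 at chronic 14 d. Macrophage markers (10 genes) summed to 135 to 588 CPM in healthy libraries, 123 to 175 at acute 24 h, 287 to 521 at acute 72 h, 3981 to 10325 at acute 7 d, 475 to 3317 at chronic 24 h, 933 to 2544 at chronic 72 h and 763 to 1877 at chronic 14 d. Their part in the members' values was not tested. In bulk RNA, fewer cells of a type and less RNA per cell cannot be told apart.

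Against healthy libraries, members were called as follows, each count beside the share of all tested genes called in that comparison. At acute 24 h 3 of 10 members were called, all lower, where 33.7% of all genes were called and 18.1% were lower. Acute 72 h had 4 called, all lower (21.9% of all genes called, 8.81% lower). Acute 7 d had 4 lower and 1 higher (23.7% called, 10.6% lower and 13.1% higher). After chronic injury, 24 h gave 3 called, all lower (31% called, 14% lower). The 72 h group had 5 lower and 1 higher (20% called, 9% lower and 11% higher), and the 14 d group 1 lower and 0 higher (8.61% called, 3.49% lower and 5.12% higher). Counts called in either direction at acute 24 h, chronic 24 h and chronic 14 d lie near these background shares. Within the higher depth class alone, Notch1 (-1.87) and Dll4 (-3.41) were still called at chronic 24 h, and Notch1 (-1.88), Notch4 (-1.98), Jag1 (-1.52), Dll4 (-2.47) and Hey1 (1.56) at chronic 72 h, with 2 libraries in each chronic group. Median log2 fold changes of the 10 members were between -1.0 (chronic 72 h) and -0.44 (acute 24 h), and those of all genes between -0.12 and 0.01. The 6 comparisons share the same 4 healthy libraries and are not independent of each other.

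**Figure D1:**
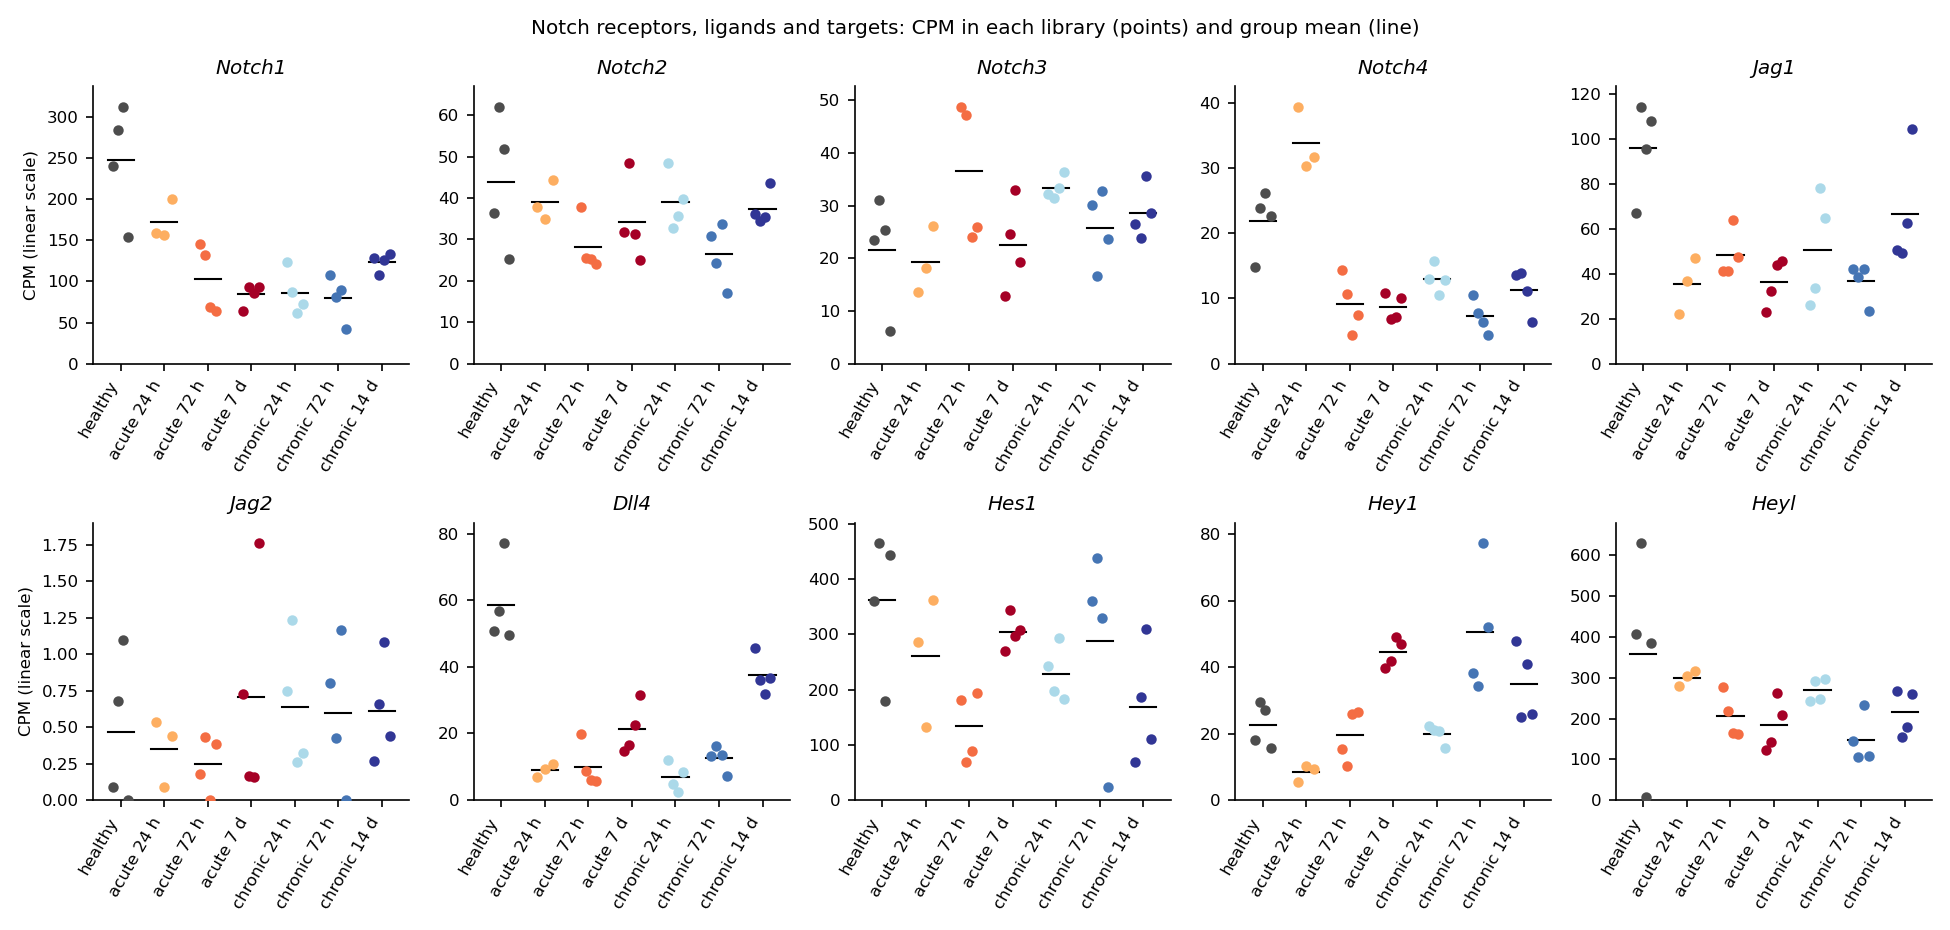
CPM of the 10 genes (vertical axes, linear, from 0) in each of the 27 libraries, grouped by healthy, acute and chronic groups on the horizontal axis, with a line at each group mean. The healthy libraries of Dll4 lie between 49.6 and 77.2 CPM, above all libraries of the other groups, and 1 healthy library of Heyl lies at 7.07 CPM while the others reach 385 or more.

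Among the receptors, Notch1 had the highest level per length in every group, between 5.61 and 17.4 CPM per kb of exon, while the other 3 receptors lay between 0.901 and 4.52. Notch1 was at 154, 240.3, 284 and 313 CPM in the healthy libraries and at 157, 159 and 200.02 CPM 24 h after 1 injection. It then stood at 63.4, 69.4, 132 and 146 CPM at acute 72 h and at 63.8, 86.5, 93.0 and 93.5 CPM at acute 7 d. From 72 h on, no library of the acute groups reached the lowest healthy one, whereas the 24 h libraries overlapped the healthy range. The log2 fold change against healthy was -0.53 ± 0.31 (SE) at acute 24 h (adjusted p = 0.202, edgeR), -1.27 ± 0.29 at 72 h (adjusted p = 0.00251) and -1.56 ± 0.29 at 7 d (adjusted p = 0.000403). Between 24 h and 7 d of the acute course Notch1 fell by 1.03 ± 0.31 on the log2 scale (adjusted p = 0.00937, edgeR).

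After chronic injury Notch1 was low at the first time sampled, 24 h after the course of 8 injections. No library was taken earlier in that course. It was at 61.4, 73.1, 87.3 and 124 CPM at chronic 24 h, at 41.9, 81.0, 89.3 and 107 CPM at chronic 72 h, and at 108, 127, 129 and 134 CPM at chronic 14 d. All 12 chronic libraries lay below the lowest healthy library. The log2 fold changes were -1.52 ± 0.29 at 24 h (adjusted p = 0.000306, edgeR), -1.63 ± 0.29 at 72 h (adjusted p = 0.000296) and -0.997 ± 0.287 at 14 d (adjusted p = 0.0313). The call at 14 d was lost without any 1 of healthy replicates 1 to 3 or of the 4 chronic 14 d libraries, where the log2 fold change was -1.01 to -0.87 and the adjusted p 0.0546 to 0.118. The 14 d call was lost too with library size alone (adjusted p = 0.0829, edgeR) and with no filter on low counts (adjusted p = 0.0517). With a term for depth class the 14 d log2 fold change was -1.58 (adjusted p = 0.0171). Notch1 was also lower at chronic 24 h than at acute 24 h, by -0.99 ± 0.31 (adjusted p = 0.0217, edgeR), a call lost without acute 24 h replicate 3 (-0.87) or chronic 24 h replicate 3 (-0.86). In the order of group means, healthy (248 ± 69.5 CPM, SD, n = 4) and acute 24 h (172 ± 24.3, n = 3) overlapped, acute 24 h and chronic 14 d (124 ± 11.3, n = 4) did not, and the 4 lower groups overlapped with their neighbours.

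Notch4, a receptor known from endothelium, had its highest values at acute 24 h and fell afterwards. It was at 14.8, 22.6, 23.8 and 26.3 CPM in healthy libraries and at 30.3, 31.7 and 39.5 CPM at acute 24 h, then at 4.39, 7.43, 10.7 and 14.3 CPM at acute 72 h and 6.88, 7.16, 10.1 and 10.9 CPM at acute 7 d. The 3 acute 24 h libraries were the highest of all 27, and the 72 h and 7 d libraries were all below the healthy ones. Against healthy the 24 h difference was 0.63 ± 0.32 (adjusted p = 0.139, edgeR), which passed only when those 2 groups were fitted alone (0.70, adjusted p = 0.0419). The falls were -1.25 ± 0.31 at 72 h (adjusted p = 0.0047) and -1.32 ± 0.31 at 7 d (adjusted p = 0.00296), and from 24 h to 7 d Notch4 fell by 1.95 ± 0.33 (adjusted p = 5.65e-05).

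The chronic groups had Notch4 at 10.6, 12.8, 13.03 and 15.8 CPM after 24 h, at 4.38, 6.45, 7.70 and 10.5 CPM after 72 h and at 6.46, 11.2, 13.6 and 13.9 CPM after 14 d. Only the 24 h group overlapped the healthy range. Against healthy the log2 fold change was -1.60 ± 0.31 at 72 h (adjusted p = 0.000705, edgeR), and -0.75 ± 0.30 at 24 h and -0.95 ± 0.31 at 14 d did not pass (adjusted p = 0.064 and 0.0537). Those last 2 values crossed the threshold with DESeq2 (adjusted p = 0.0491 and 0.0421) and with a term for depth class (adjusted p = 0.0212 and 0.0429), so their side of the threshold depends on the method. At 24 h the chronic libraries were below the acute ones by -1.38 ± 0.32 (adjusted p = 0.00352), with no overlap.

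Notch2, the receptor that biliary cells use, ranged from 25.4 to 62.1 CPM in healthy libraries and from 17.1 to 48.4 CPM in the other 23. It overlapped the healthy range in every group. Its single call was at chronic 72 h, with libraries at 17.1, 24.3, 30.8 and 33.7 CPM, a log2 fold change of -0.73 ± 0.25 and an adjusted p of 0.0395 (edgeR). That call was lost without healthy replicate 2 or 3 or chronic 72 h replicate 2 or 4 (-0.67 to -0.52), and within the higher depth class (-0.75, adjusted p = 0.167). It was lost too with library size alone (adjusted p = 0.0995, edgeR), no filter on low counts (0.0806) and a term for depth class (0.0554). The same held with the 2 groups fitted alone (adjusted p = 0.163, edgeR) and with a 2-fold minimum. Notch3, the receptor of vascular mural cells, was at 6.15, 23.5, 25.4 and 31.1 CPM in healthy libraries and passed in no comparison. Its highest values were 47.3 and 48.8 CPM, both at acute 72 h, where the other 2 libraries were at 24.1 and 25.996 CPM (0.76 ± 0.36, 95% interval 0.02 to 1.498, adjusted p = 0.132). At chronic 24 h its 4 libraries lay between 31.5 and 36.4 CPM, above all healthy libraries by a small gap (0.63 ± 0.36, adjusted p = 0.19). Summed vascular smooth muscle markers (6 genes) were 41.3 to 198 CPM in that group and 18.1 to 25.1 CPM in healthy libraries, and 5 of the 5 tested were called higher. Their part in the Notch3 level was not tested.

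**Figure D2:**
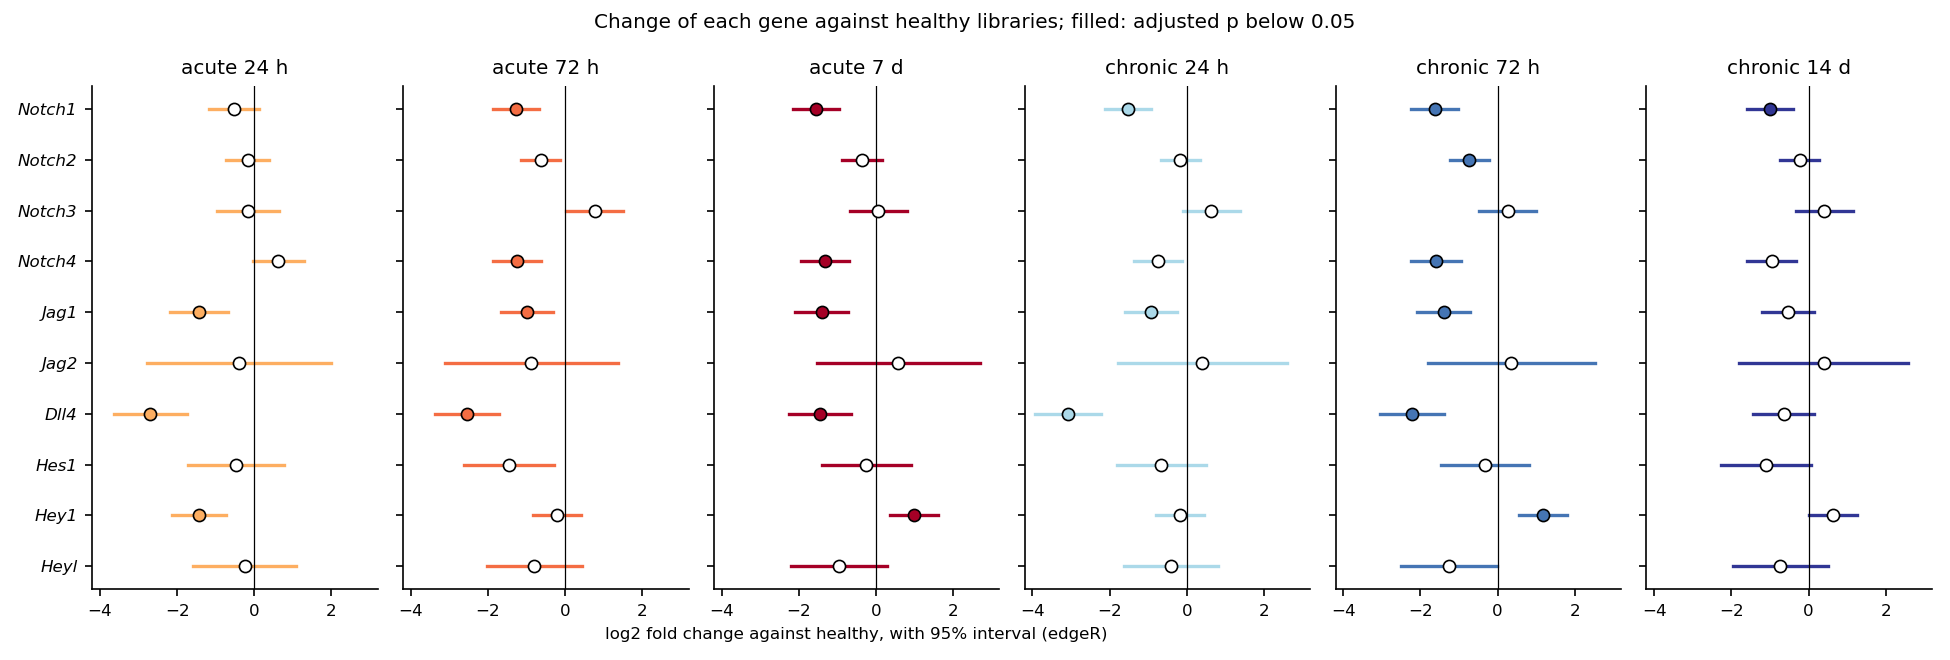
Log2 fold change of each of the 10 genes against healthy libraries (horizontal axes) with its 95% interval, in 1 panel for each injury group. Filled points passed at an adjusted p of 0.05. Dll4 reaches -3.08 at chronic 24 h and Hey1 changes sides between acute 24 h (-1.43) and acute 7 d (0.98).

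Dll4, the delta-like ligand that endothelial cells present to their neighbours, was at 49.6, 50.9, 56.8 and 77.2 CPM in healthy libraries. One injection was followed by 7.02, 9.36 and 10.7 CPM at 24 h, 5.73, 6.09, 8.73 and 19.8 CPM at 72 h and 14.7, 16.6, 22.4 and 31.6 CPM at 7 d. The chronic groups were at 2.54, 4.94, 8.31 and 12.1 CPM (24 h), 7.12, 13.3, 13.5 and 16.3 CPM (72 h) and 32.0, 36.1, 36.7 and 45.6 CPM (14 d). No injured library reached the healthy range, and the 14 d libraries were all above those of the 5 other injury groups.

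Against healthy, Dll4 differed by -2.70 ± 0.46 at acute 24 h (adjusted p = 7.64e-05, edgeR), -2.54 ± 0.40 at acute 72 h (adjusted p = 8.2e-05) and -1.46 ± 0.39 at acute 7 d (adjusted p = 0.00823). Values after chronic injury were -3.08 ± 0.42 at 24 h (adjusted p = 5.37e-06), -2.23 ± 0.40 at 72 h (adjusted p = 0.00032) and -0.64 ± 0.38 at 14 d (95% interval -1.43 to 0.15, adjusted p = 0.333). With a term for depth class the 14 d value was -1.22 (adjusted p = 0.2005). From chronic 24 h to chronic 14 d Dll4 rose by 2.44 ± 0.41 (adjusted p = 0.000148), the single member called of 10 in that comparison (23% of all genes called, 10.1% higher). Within the lower depth class alone, with 2 chronic 24 h and 4 chronic 14 d libraries, the difference was 2.19 (adjusted p = 0.00961). The rise from acute 24 h to acute 7 d was 1.24 ± 0.43 (adjusted p = 0.0251), and it did not pass without acute 24 h replicate 1 (1.09) or 2 (1.27) or acute 7 d replicate 4 (0.99). Chronic 24 h and acute 24 h overlapped in Dll4, and the difference of -0.38 had a 95% interval of -1.27 to 0.50.

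Dll4, endothelial markers and stellate markers were called lower in several of the same groups. Of the 14 endothelial markers, 8 were called lower and 1 higher at acute 24 h and 11 lower at acute 72 h. At chronic 24 h 7 were lower and at chronic 72 h 1, and from chronic 24 h to chronic 14 d 11 were called higher. At acute 7 d, where Dll4, Notch1 and Notch4 were called lower, 0 of the 14 markers were called lower and 1 higher, with a summed level of 327 to 943 CPM that overlapped the healthy range of 263 to 774 CPM. The part of endothelial RNA in the Dll4, Notch1 and Notch4 values was not tested in any group. At chronic 14 d the endothelial marker sum was 612 to 903 CPM and 0 of 14 markers were called in either direction. Of 11 stellate markers, 6 were called lower and 1 higher at acute 24 h, 6 lower at acute 72 h and 7 lower at acute 7 d. After chronic injury 8 were lower and 1 higher at 24 h, 8 lower at 72 h and 4 lower at 14 d. From chronic 24 h to chronic 14 d 7 were called higher and 2 lower. How these stellate calls relate to Dll4 was not tested.

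**Figure D3:**
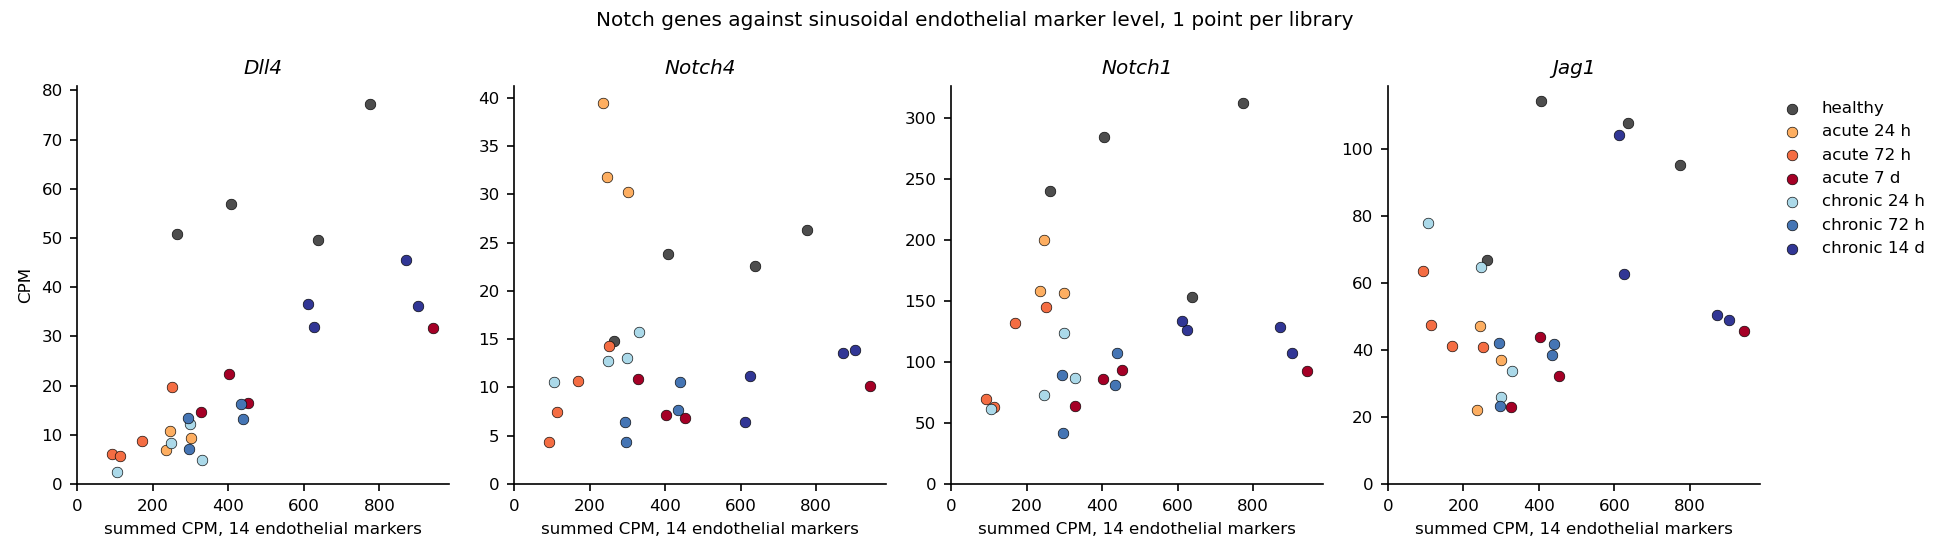
CPM of Dll4, Notch4, Notch1 and Jag1 (vertical axes) against the summed CPM of 14 endothelial markers (horizontal axes), 1 point for each of the 27 libraries, coloured by group. The 4 acute 7 d libraries span marker sums of 327 to 943 CPM and their Dll4 lies between 14.7 and 31.6 CPM, under the lowest healthy value of 49.6.

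Jag1, the ligand mutated in Alagille syndrome, was at 66.8, 95.4, 108 and 114 CPM in healthy libraries. It was at 22.1, 36.9 and 47.2 CPM at acute 24 h, at 41.0, 41.2, 47.6 and 63.7 CPM at acute 72 h and at 23.0, 32.2, 43.9 and 45.6 CPM at acute 7 d. All 11 acute libraries lay below the healthy ones. The log2 fold changes were -1.44 ± 0.37 (adjusted p = 0.00359, edgeR), -0.99 ± 0.33 (adjusted p = 0.0318) and -1.41 ± 0.33 (adjusted p = 0.00318) at 24 h, 72 h and 7 d. The 72 h call was lost without healthy replicate 2, 3 or 4 or acute 72 h replicate 1, 2 or 4 (adjusted p = 0.0566 to 0.0827). It was lost too with library size alone (adjusted p = 0.0532, edgeR) and with a 2-fold minimum.

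In the chronic groups Jag1 was at 26.1, 33.7, 64.9 and 78.0 CPM after 24 h, at 23.4, 38.5, 42.0 and 42.2 CPM after 72 h and at 49.1, 50.4, 62.7 and 104 CPM after 14 d. The 72 h libraries were all below healthy (-1.40 ± 0.33, adjusted p = 0.00397, edgeR), and the 14 d libraries overlapped healthy (-0.53 ± 0.33, adjusted p = 0.35; -0.049 with a term for depth class, adjusted p = 0.976). At 24 h the group split by depth class. Its 2 lower-depth libraries were at 26.1 and 33.7 CPM and the 2 higher-depth ones at 64.9 and 78.0 CPM, so the fall of -0.92 ± 0.33 (adjusted p = 0.0349) became -0.42 (adjusted p = 0.382) in the higher class alone. That call was also lost without healthy replicate 2, 3 or 4 or without chronic 24 h replicate 1 or 2 (adjusted p = 0.0571 to 0.11). It was lost too with a term for depth class (adjusted p = 0.0966, edgeR) and with the 2 groups fitted alone (adjusted p = 0.0889). Macrophage marker sums split the same way, at 2302 and 3317 CPM in the lower-depth libraries and 475 and 1045 CPM in the higher-depth ones. Smooth muscle marker sums were 41.3 and 83.9 CPM against 198 and 196 CPM. Depth class and cell content cannot be told apart in this group.

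Jag2 was near the detection limit throughout. It had 0 to 23 counts a library, with 12 of the 27 libraries at or under 3 counts, and 0 to 1.76 CPM. Its 95% intervals spanned more than 4 log2 units in every comparison, so a change was not detectable at this depth.

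Hey1, a repressor that Notch induces in vascular and mesenchymal cells, fell and then rose. Healthy libraries held 15.8, 18.02, 27.1 and 29.4 CPM. After 1 injection they held 5.51, 9.38 and 10.1 CPM at 24 h, 10.2, 15.4, 25.9 and 26.4 CPM at 72 h and 39.7, 42.0, 47.0 and 48.9 CPM at 7 d. The 24 h libraries were all below and the 7 d libraries all above the healthy range, with 72 h between them. Log2 fold changes against healthy were -1.43 ± 0.34 at 24 h (adjusted p = 0.00209, edgeR), -0.21 ± 0.30 at 72 h (adjusted p = 0.67) and 0.98 ± 0.30 at 7 d (adjusted p = 0.0204). The 7 d call was lost without healthy replicate 1 (0.88) or 4 (0.84), and the rise from acute 24 h to acute 7 d, 2.41 ± 0.35 (adjusted p = 1.16e-05), passed whichever library was left out. At acute 7 d and chronic 72 h, the groups in which Hey1 was called higher than healthy, 8 and 6 of 10 macrophage markers were called higher. Of 6 tested mesothelial and portal fibroblast markers, 3 were called higher and 1 lower in each of these groups. At chronic 24 h, where Hey1 was not called against healthy, 6 of 10 macrophage markers were also called higher. Of the mesothelial and portal fibroblast markers, 2 were called higher and 1 lower there. The part of these cells in the Hey1 level was not tested.

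In chronic injury Hey1 was at 15.7, 20.7, 21.1 and 22.2 CPM at 24 h, at 34.2, 38.4, 52.1 and 77.3 CPM at 72 h and at 25.1, 25.8, 40.8 and 47.9 CPM at 14 d. The 24 h group overlapped the healthy group and lay above acute 24 h, the 72 h group lay above all healthy libraries, and the 14 d group overlapped them. Against healthy the values were -0.18 ± 0.30 (adjusted p = 0.685, edgeR), 1.16 ± 0.30 (adjusted p = 0.0077) and 0.63 ± 0.30 (adjusted p = 0.208). Chronic 24 h exceeded acute 24 h by 1.25 ± 0.34 (adjusted p = 0.00992), a call lost without acute 24 h replicate 1 (1.03) or in the higher depth class alone (1.09, adjusted p = 0.0568). The rise from chronic 24 h to chronic 14 d, 0.81 ± 0.30, was at an adjusted p of 0.0548, and DESeq2 gave 0.0232. In the comparison of acute 7 d with acute 24 h 2 members were called higher and 2 lower (39.9% of all genes called, 22.6% higher and 17.4% lower). In that of chronic 24 h with acute 24 h 1 was higher and 2 were lower (21.3% called, 14% higher and 7.32% lower). Counts called in either direction lie near these background shares in both comparisons.

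Hes1, the repressor most widely used as a readout of Notch, was at 179, 361, 444 and 465 CPM in healthy libraries and had the highest level per length of the 10 members in all 7 groups, at 65.5 to 178 CPM per kb. It varied widely within groups. At acute 72 h the libraries were at 68.9, 89.3, 182 and 193 CPM, and at chronic 14 d at 69.1, 110.4, 187 and 309.8 CPM. At chronic 72 h replicate 4 stood at 23.3 CPM and the other 3 libraries at 329.6 to 438 CPM. The acute 72 h value was the lowest against healthy, -1.44 ± 0.56 (adjusted p = 0.0697, edgeR), and DESeq2 called it (adjusted p = 0.0253). Other log2 fold changes against healthy ran from -1.10 to -0.25, of which acute 7 d had the narrowest 95% interval, -1.39 to 0.90.

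Heyl, a Hey relative found in vascular smooth muscle and pericytes, was second per length in every group, at 29.0 to 69.9 CPM per kb. Its healthy libraries were at 385, 408 and 630.3 CPM, except replicate 3, which held 84 counts or 7.07 CPM. The acute groups ran from 281 to 316 CPM (24 h), 162 to 279 CPM (72 h) and 122 to 263 CPM (7 d), and the chronic groups from 243 to 297 CPM (24 h), 106 to 234 CPM (72 h) and 154 to 268 CPM (14 d). All 23 injured libraries were below the 3 higher healthy ones and above the fourth. With all 27 libraries the log2 fold changes were -1.27 to -0.25 and none passed (adjusted p = 0.144 to 0.804, edgeR). Without healthy replicate 3 Heyl was called lower in 5 of the 6 groups, by -0.81 at chronic 24 h (adjusted p = 0.0388), -1.68 at chronic 72 h (adjusted p = 0.000332), -1.14 at chronic 14 d (adjusted p = 0.0178), -1.21 at acute 72 h (adjusted p = 0.00527) and -1.37 at acute 7 d (adjusted p = 0.00182). Whether that library or the other 3 give the healthy level was not tested.

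**Figure D4:**
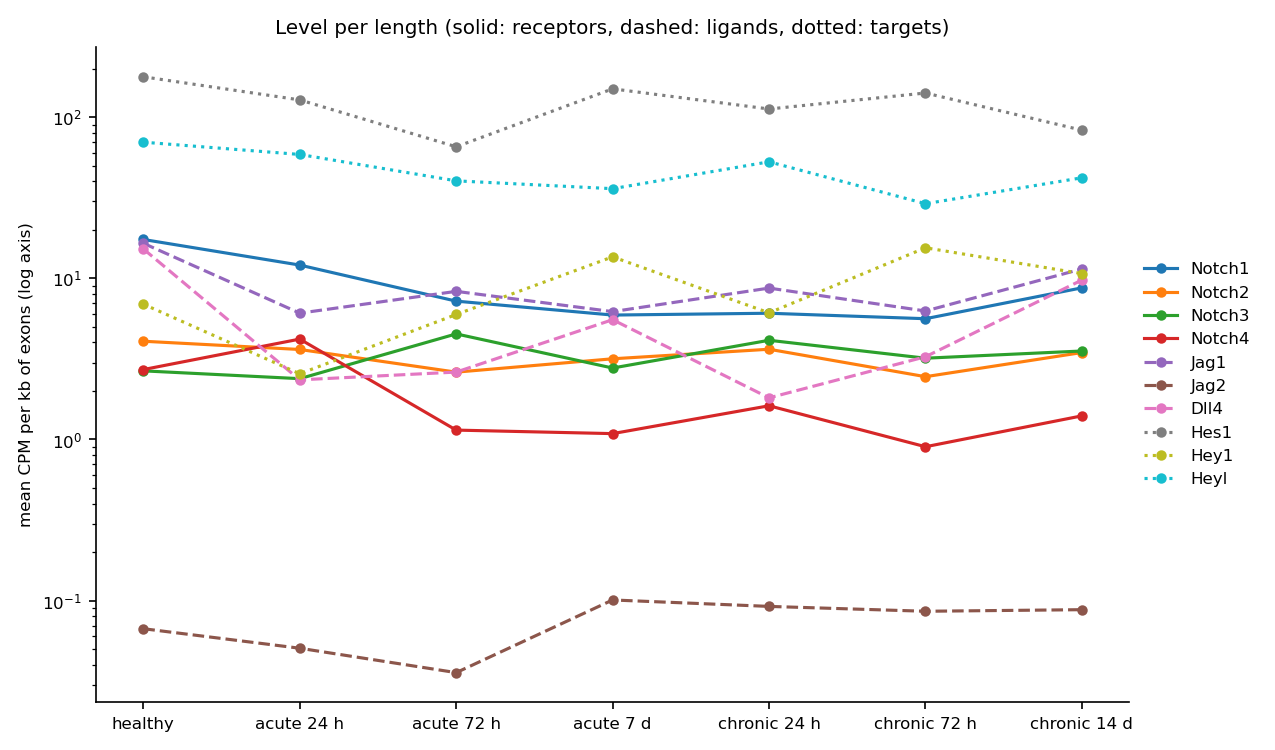
Mean CPM per kb of exon (vertical axis, log scale) of the 10 genes in the 7 groups (horizontal axis), with receptors as solid, ligands as dashed and targets as dotted lines. Hes1 and Heyl lie on top in every group and Jag2 at the bottom, while Dll4 spans 1.81 to 15.2 and Hey1 2.56 to 15.5 CPM per kb.

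Per length, the order of the middle members differed between groups. In healthy cells Notch1 (17.4 ± 4.88 CPM per kb, SD, n = 4), Jag1 (16.5) and Dll4 (15.2) followed Hes1 and Heyl, ahead of Hey1 (6.91). At chronic 72 h Hey1 came next after Hes1 and Heyl (15.5), ahead of Jag1 (6.27), Notch1 (5.61) and Dll4 (3.26). Notch4 was above Notch2 and Notch3 at acute 24 h (4.20 against 3.62 and 2.38) and below both in every other injury group. Lengths are unions of annotated exons, and dividing by the longest transcript instead changed the rank of 0 to 5 members a group.

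Each member was also set beside all genes whose mean log2 CPM was 3 or more, as Pearson's r of log2 CPM over the 27 libraries, which share group means and depth. Notch1 was closest to Baz2a (0.943). Dll4 was closest to Xpc (0.932), Cadm1 (0.921) and Angptl6 (0.916), and Hey1 to Acvr1 (0.923), Ldhb (0.922) and Zfyve1 (0.907). Notch2 lay nearest to Akap13 (0.907), Notch4 to Fam20a (0.874), Jag1 to Gm1826 (0.863) and Jag2 to Arhgap39 (0.687). For these 7 members the first r stayed at 0.646 or more without any 1 library. The nearest genes of Heyl, Hes1 and Notch3, namely Ankrd40 (0.857), Prkar1a (0.692) and Nav2 (0.773), fell to 0.524, 0.365 and 0.568 without a single library. Among the members themselves Notch1 and Notch4 were the closest pair (0.733) and Notch4 and Hey1 the most opposed (-0.676).

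The rest of the pathway was read from a list of 54 further genes by role, of which 49 were tested. Against healthy 12 were called lower and 4 higher at acute 24 h, 13 and 1 at acute 72 h, 11 and 5 at acute 7 d, 12 and 7 at chronic 24 h, 11 and 5 at chronic 72 h, and 2 and 2 at chronic 14 d. The called-lower shares were 24.5%, 26.5%, 22.4%, 24.5%, 22.4% and 4.08% of the 49 in that order, beside 18.1%, 8.81%, 10.6%, 14%, 9% and 3.49% of all genes. The called-higher shares were 8.16%, 2.04%, 10.2%, 14.3%, 10.2% and 4.08%, beside 15.5%, 13.1%, 13.1%, 17.1%, 11% and 5.12% of all genes. The median log2 fold change of the 49 was between -0.38 and -0.12, that of all genes between -0.12 and 0.01. Named genes are those among the 3 highest or 3 lowest called values of the list whose groups did not overlap.

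Among further ligands, Dll1, a delta-like activating ligand, was at 1.36 to 2.02 CPM in healthy libraries and at 4.34 to 4.90 CPM at acute 7 d, a rise of 1.45 ± 0.32 (adjusted p = 0.00213, edgeR). Dlk1, a non-canonical ligand, had a mean of 0.0421 CPM in healthy libraries and of 0.983 and 1.12 CPM at chronic 24 h and 72 h, levels too close to 0 for a fold. Lfng, a Fringe enzyme that adds sugar to the receptors and shifts their preference between Delta and Jagged ligands, stood at 1.09 to 3.55 CPM in healthy libraries. It was at 9.89 to 13.4 CPM at acute 7 d (2.13 ± 0.43, adjusted p = 0.00095), 5.26 to 16.3 CPM at chronic 24 h (2.001 ± 0.435, adjusted p = 0.00111) and 6.53 to 11.1 CPM at chronic 72 h (1.75 ± 0.43, adjusted p = 0.00569). Acute 24 h libraries, at 0.438 to 2.04 CPM, lay below those of chronic 24 h by 3.04 ± 0.52 (adjusted p = 0.000168). Pofut1, the enzyme that puts O-fucose on the receptors, fell at chronic 72 h by 1.07 ± 0.20 (adjusted p = 0.000489).

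Dll1, Lfng and Aph1c, a gamma-secretase gene described next, were higher at acute 7 d, where 8 of 10 macrophage markers were called higher, as were 4 of 4 B cell markers and 4 of 4 tested neutrophil markers. At chronic 24 h and 72 h, where Lfng was also higher, 6 of 10 macrophage markers were. The part of these cells in the 3 genes' levels was not tested.

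Of the 10 genes of receptor cleavage, which include the gamma-secretase subunits, 1 to 2 were called lower and 0 to 2 higher in each group against healthy. Among all genes, 3.49% to 18.1% were called lower and 5.12% to 17.1% higher, so with 10 genes these counts lie near the background. Psen2, a catalytic subunit, was lower at chronic 24 h by -1.06 ± 0.20 (adjusted p = 0.000247, edgeR), and Ncstn, the substrate-binding subunit, at chronic 72 h and chronic 14 d by -0.64 ± 0.16 each (adjusted p = 0.00685 and 0.0151). Aph1c, a scaffold subunit, was at 3.79 to 4.62 CPM in healthy libraries and at 13.2 to 22.6 CPM at acute 7 d (2.01 ± 0.27, adjusted p = 1.26e-05). Adam17, a sheddase, was higher at acute 72 h (0.74 ± 0.18, adjusted p = 0.00355). Aph1a, another scaffold subunit, was higher at acute 24 h (0.58 ± 0.21, adjusted p = 0.0368).

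None of the 8 genes of the nuclear complex was called higher against healthy in any group, and 0 to 5 were called lower, where 5.12% to 17.1% of all genes were called higher and 3.49% to 18.1% lower. With 8 genes, a count of 0 higher lies near that background. The count of 5 lower was at acute 7 d, where 10.6% of all genes were lower. It was 3 at acute 24 h (18.1%), chronic 24 h (14%) and chronic 72 h (9%). Acute 72 h had 2 (8.81%) and chronic 14 d 0 (3.49%). Maml3, a Mastermind coactivator, was at 50.1 to 80.1 CPM in healthy libraries and lower at acute 24 h (-1.31 ± 0.26, adjusted p = 0.000347, edgeR), acute 72 h (-1.01 ± 0.23, adjusted p = 0.00264), acute 7 d (-1.17 ± 0.23, adjusted p = 0.000682) and chronic 24 h (-0.97 ± 0.23, adjusted p = 0.00239). Among the repressor partners Spen was lower at acute 7 d by -1.26 ± 0.24 (adjusted p = 0.000462), and Hdac1, a histone deacetylase, was higher at acute 24 h (0.53 ± 0.20, adjusted p = 0.045). Nrarp, a Notch target that feeds back to inhibit the pathway, fell at acute 24 h by 2.25 ± 0.48 (adjusted p = 0.000819), from 2.53 to 7.10 CPM in healthy libraries to 0.965 to 1.07 CPM. It rose from chronic 24 h to chronic 14 d by 1.46 ± 0.41 (adjusted p = 0.0125). Numbl, an adaptor of the Numb family, was higher at acute 24 h (0.72 ± 0.18, adjusted p = 0.00337) and fell between chronic 24 h and 14 d by 1.07 ± 0.17 (adjusted p = 8.29e-05), and Dtx4, a Deltex ubiquitin ligase, fell at acute 72 h by 1.13 ± 0.23 (adjusted p = 0.00109).

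**Figure D5:**
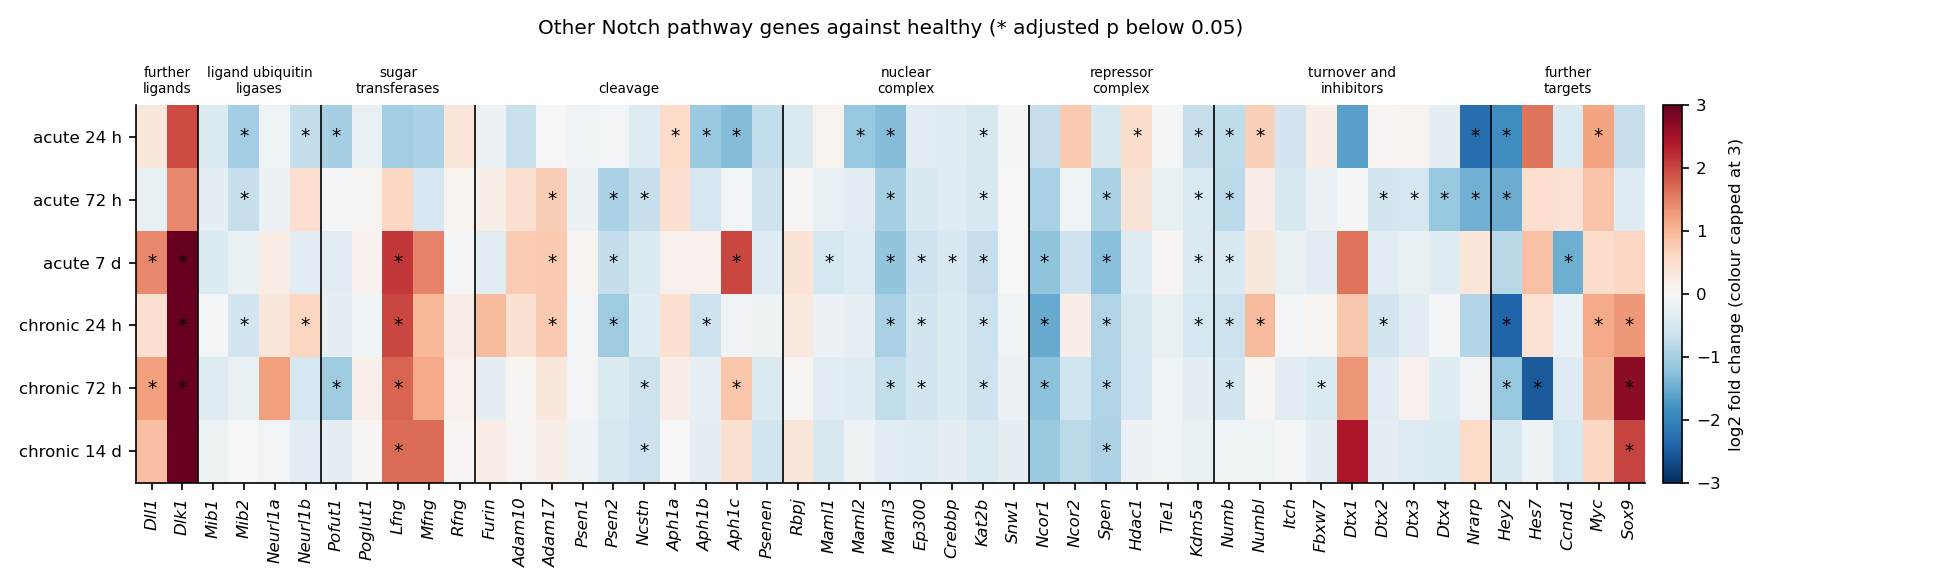
Log2 fold change against healthy (colour, capped at 3 in either direction) of the 49 further pathway genes tested (columns, grouped by role) in the 6 injury groups (rows), with a star at an adjusted p below 0.05. The nuclear complex holds no star on a red field, and Hey2 is starred at -2.41 at chronic 24 h and Sox9 at 2.68 at chronic 72 h.

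Further targets did not move as one. Hey2, the vascular relative of Hey1, was at 9.52 to 19.8 CPM in healthy libraries. It was lower at acute 24 h (-1.87 ± 0.37, adjusted p = 0.000389, edgeR), acute 72 h (-1.50 ± 0.33, adjusted p = 0.00186), chronic 24 h (-2.41 ± 0.34, adjusted p = 9.85e-06) and chronic 72 h (-1.14 ± 0.33, adjusted p = 0.0146), and rose from chronic 24 h to chronic 14 d by 1.92 ± 0.34 (adjusted p = 0.000269). At chronic 72 h, where Hey1 was called higher, Hey2 stood at 6.14 to 7.44 CPM. Sox9, a transcription factor of bile duct cells and of fibrogenic stellate cells, was at 4.07 to 19.6 CPM in healthy libraries and at 24.8 to 42.1, 51.0 to 137 and 38.6 to 57.3 CPM at chronic 24 h, 72 h and 14 d (1.31 ± 0.37, 2.68 ± 0.39 and 2.03 ± 0.38, adjusted p = 0.00963, 2.86e-05 and 0.00141). Summed cholangiocyte markers (6 genes) were 0.815 to 4.97 CPM in healthy libraries and 3.15 to 13.8 CPM in the 12 chronic ones, with 0 of 6 called higher in any chronic group. Mesothelial and portal fibroblast markers (7 genes, 6 tested) summed to 72.6 to 102 CPM in healthy libraries. They summed to 196 to 351 at chronic 24 h, 422 to 767 at chronic 72 h and 192 to 337 at chronic 14 d. Of the 6 tested, 2, 3 and 2 were called higher and 1, 1 and 0 lower, in that order. The part of either cell type in the Sox9 level was not tested. Ccnd1, which encodes cyclin D1, fell at acute 7 d by 1.46 ± 0.27 (adjusted p = 0.000364).

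Exons of Notch1, Notch2, Notch3 and Dll4 share 1482, 541, 488 and 214 bases with other annotated genes on one or the other strand. Those neighbours were at 8.66 CPM or less in every library, and how the counting used strand is not given in the sources used here, so their reads cannot be told apart with certainty.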

How the data were processed

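RNA was sequenced as single-end 75-base reads and, per the labels and the study's methods, the authors aligned them to GRCm38 with STAR and used StringTie. The deposited table holds raw counts per Ensembl gene for 27 libraries, not normalized. Versions, annotation release and strand setting are not given in the sources used here. Symbols came from GENCODE M21, which held 53274 of the 53379 IDs (105 were not found).

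Counts were filtered with filterByExpr, scaled by TMM and fitted with edgeR 4.0.16 (R 4.3.3) as 1 mean per group over all 27 libraries. The quasi-likelihood test gave 9 comparisons, with Benjamini-Hochberg adjustment over 18758 genes and a call at 0.05. The study used DESeq2, run here (1.42.0) as an alternative with others on scaling, filters, depth class, pairing and left-out libraries. The procedure was tested on simulated data. Log2 CPM used a prior count of 2. Members and lists were chosen with earlier results of these data known. All 10 members are named, and other pathway genes only among the 3 highest or 3 lowest called values without overlap. Within-group library pairs (39) differed beyond sampling noise, with a chi-square per degree of freedom of 15.5 to 82.1. Total counts were 6314801 to 13052838 a library. Binomial intervals were not needed, and intervals of fold changes are 95% intervals of the fit. Not every gene that the search for like patterns returned is reported here.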

Additional observations from a re-analysis of the deposited data

Results flagged for a closer look

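In 4 cases a library stood far from the other 3 of its group in a member's log2 CPM. That was among 60 combinations of member and group examined, where chance alone gives about 1 in 20. Notch2 was at 37.8 CPM in acute 72 h replicate 1, with the others at 24.1 to 25.6 CPM. Jag1 was at 23.4 CPM in chronic 72 h replicate 4, with the others at 38.5 to 42.2 CPM. Hes1 was at 23.3 CPM in the same library, with the others at 329.6 to 438 CPM. Heyl was at 7.07 CPM in healthy replicate 3, with the others at 385 to 630.3 CPM. Each of the 27 libraries had genes at least 16-fold below the rest of its group, 6 to 21 among 10292 searched, with 9 in healthy replicate 3 and 14 in chronic 72 h replicate 4.

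Tested directly between the groups 24 h after 1 and after 8 injections, 3 of 10 members were called, where 21.3% of all genes were called. With 10 members this count lies near that share. The Notch1 call was lost without acute 24 h replicate 3 or chronic 24 h replicate 3. The Hey1 call was lost without acute 24 h replicate 1 or in the higher depth class alone. Chronic 24 h was lower than acute 24 h in Notch1 by -0.99 and in Notch4 by -1.38, and higher in Hey1 by 1.25 (log2, adjusted p = 0.0217, 0.00352 and 0.00992, edgeR). The libraries did not overlap in any of the 3 genes, and the share of all genes without overlap was not counted.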

How the results depend on the processing

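Counts of called members moved beyond 1.5 times in 2 comparisons. For chronic 14 d against healthy the count was 1. It was 0 with library size alone, with no filter on low counts and with a 2-fold minimum. It was 2 with DESeq2, with a term for depth class and with the replicate number as a block, and ran from 0 to 1 when single libraries were left out. For chronic 14 d against chronic 24 h the count was 1, and it was 2 with DESeq2, with its size factors in edgeR, with library size alone, with a minimum mean of 1 CPM and with those 2 groups alone, and 1 to 2 with single libraries left out. In the other 7 comparisons it stayed within 1.5 times under the replicate block. Same-numbered libraries did not pair (correlations of deviations -0.17 to 0.19 over 78 pairs, 15 above 0.1, and 10 of 27 libraries closest to their own number), and the block brought Notch4 past the threshold at chronic 24 h (adjusted p = 0.0401, edgeR) and chronic 14 d (adjusted p = 0.0303).

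No called value of any member reversed. Over 831 values under settings other than leaving out a library, 796 kept their side, 18 lost and 17 gained a call, and over 690 with a library left out these were 649, 30 and 11. The fit within 1 depth class was added after seeing the data. The number of members whose rank per length changed with the longest transcript was 2 at acute 24 h, acute 72 h, acute 7 d and chronic 72 h, 4 at chronic 14 d and 5 at chronic 24 h.

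Among all genes, a 2-fold minimum left 3617 of 5818 calls at chronic 24 h, 2267 of 3748 at chronic 72 h, 1073 of 1615 at chronic 14 d, 4118 of 6319 at acute 24 h, 2355 of 4104 at acute 72 h, 2790 of 4446 at acute 7 d, 2395 of 4323 between chronic 14 d and 24 h and 2609 of 4000 between chronic and acute 24 h. Chronic 72 h had 2369 with its 2 groups alone. Chronic 14 d had 858 with a depth term, 785 with 2 groups alone and 1021 to 2533 with a library left out. The comparison of chronic 14 d with 24 h had 1902 in the lower depth class, and that of chronic with acute 24 h had 2604 without acute 24 h replicate 2. Library size alone moved the median of all genes by 0.10 to 0.18 in 6 comparisons and the share of calls that were higher at chronic 14 d from 59.4% to 83.0%. The causes were not tested. Depth limits Jag2 most.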
